A study of Mus musculus with 16 samples.

Results

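The genes of glycolysis and glucose uptake were followed across mouse embryonic fibroblasts (MEFs), embryonic stem (ES) cells and induced pluripotent stem (iPS) cells reprogrammed with human artificial chromosome (HAC) vectors. The set was a list of 38 genes for glucose entry, the glycolytic enzymes and their regulators, lactate handling and the pyruvate dehydrogenase step, and its members were all probes that carry one of these names in the array files, with Pkm under its older name Pkm2. All 38 genes were found, on 68 of the 41174 probes of the array. Every gene kept at least 1 probe among the 65 that exceeded background clearly on 1 or more arrays and so entered the test of 31415 probes, and the 3 that never did were Hk1 probes A_52_P87141 and A_52_P9337 and Slc2a3 probe A_52_P283862, which the files place on chromosome 17 and not on chromosome 6 with the other Slc2a3 probes.

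The data are 16 arrays of 1 colour, 1 per RNA sample. The groups were MEFs (C57BL/6, 1 array), the ES lines B6ES (C57BL/6) and TT2 (C57BL/6 x CBA F1), the retrovirally reprogrammed iPS line 20D17 (C57BL/6 x DBA, 1 array), 4 clones made with the vector iHAC1 (1-D6, 1-C3, 1-B and 1-A3), 4 made with the vector iHAC2 (2-N, 2-E, 2-C6 and 2-B1) and 4 lines called iHAC-free, namely F-N7, F-E4, F-C5 and F-B1. iHAC1 expresses Klf4, c-Myc, Sox2 and Oct4, several copies of each, from the CAG promoter, and iHAC2 holds in addition extra Oct4 copies and an shRNA cassette that knocks down p53. The iHAC-free lines descend from the iHAC2-iPS clones, in the order given, after loss of the vector. Every replicate is a separate clone or line, MEFs and 20D17 have none. The study's procedure added miR-294 and miR-295 mimics after transfer of the vectors. By the clone names in the study, the arrayed iHAC1 and iHAC2 clones came from transfers with the mimics. Transfers of iHAC2 without them gave clones of other names. The sample labels themselves do not state the use of mimics. ES and iPS cells were kept with LIF on mitomycin C-treated ICR MEF feeder layers, so the RNA can hold a share from feeder cells, and in bulk samples of this kind fewer cells of a type and less RNA per cell cannot be told apart.

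Cells take up glucose through facilitative transporters and split it in the cytosol to pyruvate, which is reduced to lactate and exported or passed into mitochondria through pyruvate dehydrogenase. Flux is set mainly at hexokinase, phosphofructokinase and pyruvate kinase, and each step is served by isozymes that differ between tissues. Mouse pluripotent cells in culture are known for a high glycolytic rate, many of these genes carry sites for the hypoxia-inducible factors and for Myc, and p53 is known to restrain glucose transporters and glycolytic genes.

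Promoters of 5 genes are shown because the genes were called on their leading probes in iHAC2-iPS cells against ES or iHAC1-iPS cells (Slc2a1, Aldoc, Pfkl and Pgk1) or were called in no comparison and hold the most matches of those shown to the motif searched (Ldha). Each is the 250 bases before a RefSeq start site on GRCm38.p6, given 5′ to 3′ for the gene's strand, with the letters ACGTG on either strand in capitals. These letters are a form of the core of hypoxia-response elements and part of the E-box CACGTG. The E-box is counted on both strands and so gives a pair of overlapping matches.
Slc2a1 promoter, chr4:119108495-119108744, + strand: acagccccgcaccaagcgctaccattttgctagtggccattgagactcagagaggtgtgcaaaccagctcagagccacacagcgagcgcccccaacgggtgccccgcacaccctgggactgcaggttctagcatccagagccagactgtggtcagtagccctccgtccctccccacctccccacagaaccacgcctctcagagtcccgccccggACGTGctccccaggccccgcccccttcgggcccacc
Pgk1 promoter, chrX:106186850-106187099, + strand: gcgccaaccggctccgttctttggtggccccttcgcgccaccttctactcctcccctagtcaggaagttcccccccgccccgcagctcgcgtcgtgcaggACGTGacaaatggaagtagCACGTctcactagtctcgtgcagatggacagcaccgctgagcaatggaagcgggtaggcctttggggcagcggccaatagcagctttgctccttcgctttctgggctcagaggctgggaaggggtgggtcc
Ldha promoter, chr7:46845554-46845803, + strand: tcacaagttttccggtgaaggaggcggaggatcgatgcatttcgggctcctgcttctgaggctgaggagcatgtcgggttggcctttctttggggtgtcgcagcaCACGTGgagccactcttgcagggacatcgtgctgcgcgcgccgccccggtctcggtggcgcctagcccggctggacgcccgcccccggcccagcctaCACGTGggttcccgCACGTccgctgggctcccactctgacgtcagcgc
Aldoc promoter, chr11:78322823-78323072, + strand: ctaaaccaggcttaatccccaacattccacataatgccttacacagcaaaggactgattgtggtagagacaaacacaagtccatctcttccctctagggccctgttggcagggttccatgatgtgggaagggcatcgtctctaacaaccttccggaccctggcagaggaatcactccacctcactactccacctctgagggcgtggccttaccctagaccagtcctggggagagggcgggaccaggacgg
Pfkl promoter, chr10:78009808-78010057, - strand: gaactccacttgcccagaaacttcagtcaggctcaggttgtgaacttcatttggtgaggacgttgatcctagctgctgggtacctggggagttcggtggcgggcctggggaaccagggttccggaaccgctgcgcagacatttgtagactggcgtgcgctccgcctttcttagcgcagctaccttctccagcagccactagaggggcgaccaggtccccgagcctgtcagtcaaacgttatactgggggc
Of the 38 genes, 36 had a window in the RefSeq table, 56 windows in all, and Slc2a3 and Slc2a4 had no entry. ACGTG on either strand lay in 21 of the 56 windows (37.5%) and in 5444 of all 32851 promoter windows of the same length (16.6%). The longer CACGTG lay in 7 windows (12.5%), against 6.02% of all. Slc2a1 held 1 match, 36 bases before its start, Pgk1 held 2 and the Ldha window 5, while the Aldoc and Pfkl windows held none. Other forms of the hypoxia-response core were not searched. The letters GCGTG, such a form, occur in the printed Aldoc and Pfkl windows, so these windows do not lack every form of it. A match in letters is a description and not evidence that a factor binds there.

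Levels below are log2 signals with the 75th percentile of the array set at 0, and they compare samples for 1 probe, not probes with each other. Each gene is described by its leading probe, the one with the highest mean over the 16 arrays, unless another is named. A probe was called when limma gave an adjusted p (Benjamini-Hochberg over all 31415 probes) under 0.05 and at least a 2-fold difference. All fold changes, standard errors (SE) and adjusted p-values come from 1 limma fit of the 16 arrays in 6 groups, in which the 2 ES lines borrow the spread of the other groups. On every array between 54.2% and 65.8% of spots stood well above background, with no spot saturated. The share was lowest in iHAC2-iPS clones, at 54.2% to 59.9%, with 59.4% to 63.0% in iHAC-free lines and 61.7% to 65.8% on the other arrays. Whether this bears on the scaled levels was not tested. There were 4 slides and 2 scan sessions, and MEFs, ES cells, 20D17 and iHAC1-iPS clones were all in the first session while iHAC2-iPS and iHAC-free iPS cells were all in the second. For a comparison across these sessions the session cannot be told apart from the group.

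The labels were checked against 12 pluripotent cell markers and 20 fibroblast markers. The mean level of the pluripotent markers was 4.11 and 4.20 in the ES lines, 3.66 in 20D17, 3.83 to 3.94 in iHAC-free iPS lines, 2.10 to 4.28 in iHAC2-iPS clones and -3.99 in MEFs. The iHAC1-iPS clones stood well below the other iPS cells, at -1.70 in 1-A3, -0.37 in 1-B, 0.70 in 1-C3 and -1.15 in 1-D6. Against ES cells 9 of the 12 markers were called lower in these clones and 1 higher, so the data go against a fully pluripotent identity for them, and they are named here only by their vector. Between 9 and 12 of the 12 markers were above background on each of their arrays. The list includes Pou5f1 (Oct4) and Sox2, which the vectors themselves supply. Fibroblast markers averaged 3.04 to 3.91 in iHAC1-iPS clones, 1.81 to 3.35 in iHAC2-iPS clones, 2.68 to 3.28 in iHAC-free lines, 1.41 in B6ES, 2.72 in TT2, 3.41 in 20D17 and 4.08 in MEFs. Of the 20, 19 had a higher mean in iHAC-free than in ES cells (median 0.81) and 14 in iHAC2-iPS cells (median 0.46), none of them called. In iHAC1-iPS cells all 20 had a higher mean than in ES cells (median 1.38), 8 of them called, where 6.88% of all probes were called higher. Against iHAC2-iPS cells 19 of the 20 were higher in iHAC1-iPS cells (median 1.07), 7 of them called, where 8.68% of all probes were called higher. In iHAC2-iPS against iHAC-free cells all 20 fibroblast markers had a lower mean (median -0.34), none of them called. There 10 of the 12 pluripotent markers were lower (median -1.24) and 2 higher, 1 of these called, where 0.77% of all probes were called. Because these markers differ between the groups together with the glycolytic genes, each difference between groups below stands beside them, and their part in it was not tested.

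In iHAC2-iPS cells against ES cells 13 of 65 probes (20.0%) were called, 11 higher and 2 lower, where 6.73% of all probes tested were called, 3.45% higher and 3.27% lower. In iHAC1-iPS cells against ES cells 6 of 65 probes were called (9.23%), 2 higher and 4 lower, below the 14.3% of all probes (6.88% higher, 7.39% lower). No member probe was called in iHAC-free iPS cells against ES cells, where the background was also low, at 0.366% (0.172% higher, 0.194% lower). At an unadjusted p under 0.05, 22 of the 65 probes differed there, 19 of them higher in iHAC-free cells, where 20.5% of all probes differed and 8.77% were higher.

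Between the iPS groups, 16 probes (24.6%) were called in iHAC1-iPS against iHAC2-iPS cells, 2 of them higher and 14 lower in the iHAC1 clones, and 15 (23.1%), all lower, in iHAC1-iPS against iHAC-free iPS cells. The background was 20.0% in the first (8.68% higher, 11.3% lower) and 20.1% in the second (8.86% higher, 11.2% lower), so the shares called were near the background, while the member calls were nearly all in 1 direction. No member probe was called between iHAC2-iPS cells and the iHAC-free lines made from them, against 0.77% of all probes (0.216% higher, 0.554% lower). At an unadjusted limma p under 0.05, 18 of the 65 probes differed, 12 higher and 6 lower in iHAC2-iPS cells, where 18.5% of all probes differed. These counts are of probes, and probes of 1 gene share its transcript. The plot of shares sets them side by side.

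**Figure D1:**
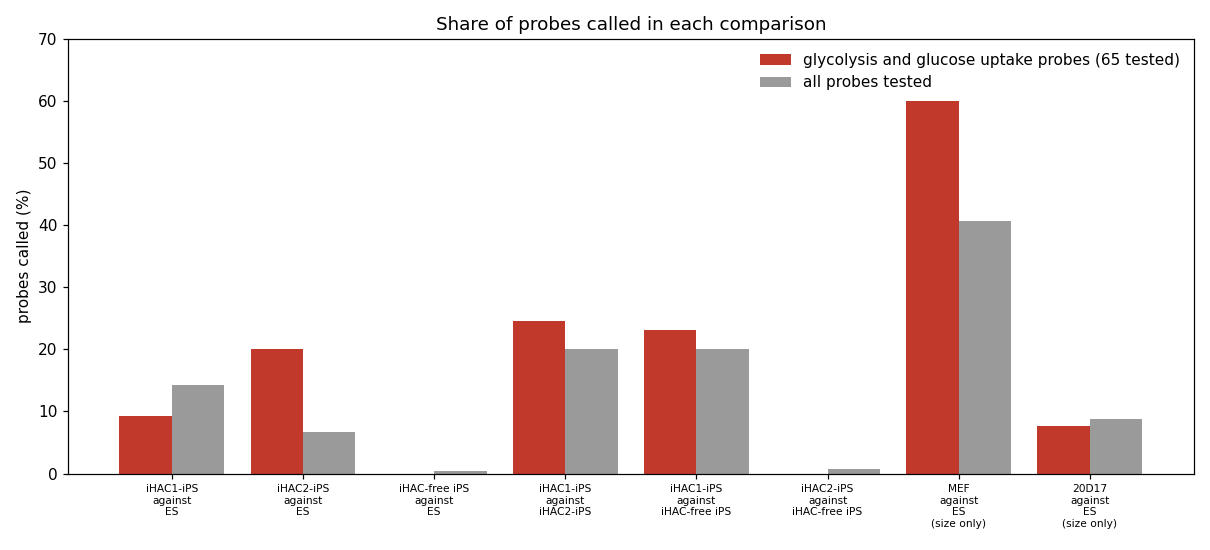
Share of probes called in each comparison, in percent, for the 65 glycolysis and glucose uptake probes (red) and for all 31415 probes tested (grey). MEFs and 20D17 are single arrays and were judged by a 2-fold difference alone. The red bar exceeds the grey bar most clearly for iHAC2-iPS against ES cells, at 20.0% against 6.73%, and for MEFs against ES cells, at 60.0% against 40.7%.

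Counted by gene on leading probes, 30 of 38 genes had a higher mean in iHAC2-iPS cells than in ES lines, with a median log2 difference of 0.43 where all probes had 0.05. The same number, 30 of 38, had a higher mean in iHAC-free iPS cells, with a median of 0.45 against 0.02 for all probes, although none was called. Both comparisons use the same ES arrays and the same scan session for the iPS cells. In iHAC1-iPS cells 16 of 38 genes had a higher mean than in ES lines, and the median over the 65 probes was -0.09, which turned to 0.06 under quantile normalization. Against iHAC2-iPS cells the median of leading probes was -0.59 in iHAC1-iPS cells, and against iHAC-free iPS cells it was -0.52.

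**Figure D2:**
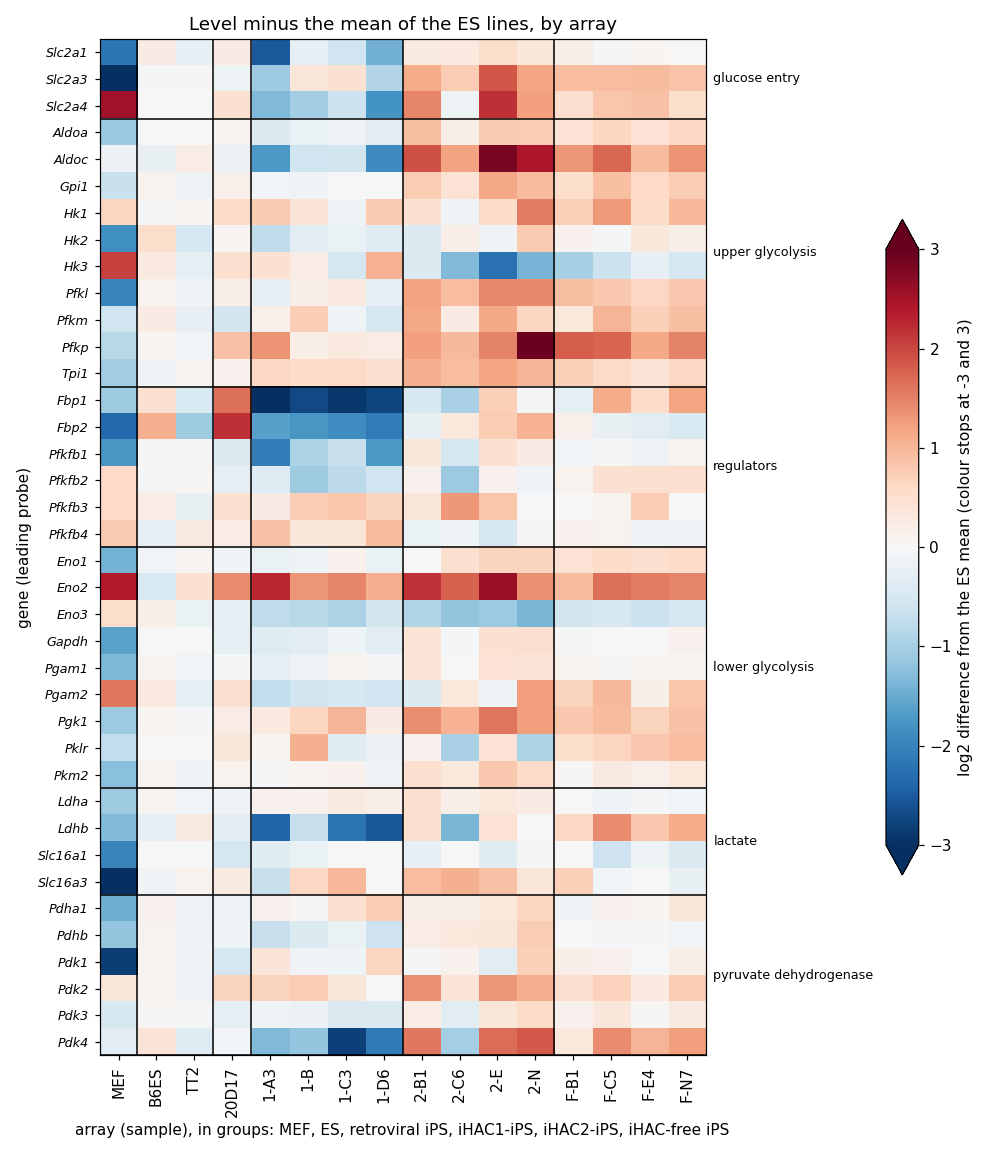
Log2 level of the leading probe of each of the 38 genes minus the mean of the ES lines, in each of the 16 arrays. Rows are genes in blocks by role and columns are arrays in groups, red is above and blue below the ES mean, and the colour stops at -3 and 3. The MEF column is blue for 28 of the 38 genes and at least 2-fold above the ES mean for Slc2a4, Hk3, Eno2 and Pgam2, the iHAC2-iPS and iHAC-free columns are mostly red in upper glycolysis, and the iHAC1-iPS columns are blue for Fbp1, Ldhb and Pdk4.

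Transcripts of all 3 glucose transporters of the set were lower in iHAC1-iPS cells than in the other HAC-derived cells. Glucose uptake itself was not measured. Slc2a1 encodes GLUT1, the transporter of basal glucose uptake (probe at chr4:118809864-118809923, mm9). Its level was 6.79 in B6ES and 6.30 in TT2, 4.38 in MEFs and 6.79 in 20D17. It was 4.03 in 1-A3, 6.29 in 1-B, 5.93 in 1-C3 and 5.10 in 1-D6, against 6.81 in 2-B1, 6.85 in 2-C6, 7.07 in 2-E and 6.89 in 2-N. The iHAC-free lines gave 6.72 in F-B1, 6.48 in F-C5, 6.60 in F-E4 and 6.52 in F-N7. Every iHAC1-iPS clone lay below every iHAC2-iPS clone and every iHAC-free line, and 1-A3 lay below even the MEF array. The differences were -1.56 (SE 0.38, adjusted p = 0.00735) from iHAC2-iPS cells, a 2.96-fold lower level, and -1.24 (SE 0.38, adjusted p = 0.0217) from iHAC-free cells. The latter lost its call without 1-A3, at -0.81 (adjusted p = 0.0277) and under 2-fold, and without 1-D6, at -1.16 (adjusted p = 0.0574). Against ES cells the difference was -1.20 (SE 0.46, adjusted p = 0.0825) and was not called.

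Slc2a3, which encodes GLUT3, a transporter of high affinity, gave the largest distance between MEFs and ES cells among the 38 leading probes (chr6:122678075-122678134). MEFs stood at 1.17, the ES lines at 5.30 in B6ES and 5.38 in TT2, and 20D17 at 5.18. Levels in iHAC1-iPS clones were 4.25 in 1-A3, 5.69 in 1-B, 5.78 in 1-C3 and 4.45 in 1-D6, while iHAC2-iPS clones had 6.44 in 2-B1, 6.09 in 2-C6, 7.19 in 2-E and 6.52 in 2-N. The iHAC-free lines were close together, at 6.25 in F-B1, 6.26 in F-C5, 6.29 in F-E4 and 6.18 in F-N7. All iHAC2-iPS clones and iHAC-free lines lay above both ES lines and above all iHAC1-iPS clones, whereas 1-A3 and 1-D6 lay below the ES lines and 1-B and 1-C3 above them. iHAC1-iPS cells differed from iHAC2-iPS cells by -1.52 (SE 0.34, adjusted p = 0.00508) and from iHAC-free cells by -1.20 (SE 0.34, adjusted p = 0.0153), which without 1-A3 was -0.94 (adjusted p = 0.0441) and under 2-fold. The rise of iHAC2-iPS over ES cells was 1.22 (SE 0.41, adjusted p = 0.0725) and that of iHAC-free over ES cells 0.91 (SE 0.41, adjusted p = 0.240), neither of them called. A second probe (A_52_P371514, chr6:122687773-122687832) was well above background on 11 of 16 arrays and on 1 of 4 iHAC1-iPS arrays, and was also called lower in iHAC1-iPS cells, with log2 differences of -2.71 from iHAC2-iPS and -2.89 from iHAC-free cells. Under normexp background correction neither was called.

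Slc2a4 (chr11:69756073-69756132) encodes GLUT4, the insulin-responsive transporter of muscle and fat, and was spotted 10 times on each array. In contrast to the other transporters it was highest in MEFs, at 0.72, with ES lines at -1.82 in B6ES and -1.79 in TT2 and 20D17 at -1.36. The iHAC1-iPS clones were lowest, at -3.13 in 1-A3, -2.84 in 1-B, -2.44 in 1-C3 and -3.59 in 1-D6. The iHAC2-iPS clones gave -0.34 in 2-B1, -1.95 in 2-C6, 0.38 in 2-E and -0.58 in 2-N, and the iHAC-free lines -1.30 in F-B1, -0.97 in F-C5, -0.92 in F-E4 and -1.27 in F-N7. Clone 2-C6 was the lowest of its group, below the ES lines, but no iHAC1-iPS clone reached it. The differences were -2.38 (SE 0.40, adjusted p = 0.00108) from iHAC2-iPS and -1.89 (SE 0.40, adjusted p = 0.00331) from iHAC-free cells, or 5.20-fold and 3.70-fold lower. Within the iHAC1-iPS clones the order of Slc2a1 and Slc2a3 followed the same split, with 1-A3 and 1-D6 low and 1-B and 1-C3 high, and 1-A3 and 1-D6 also had the lowest means of pluripotent markers and the highest of fibroblast markers. That split was seen in the data and was not tested.

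**Figure D3:**
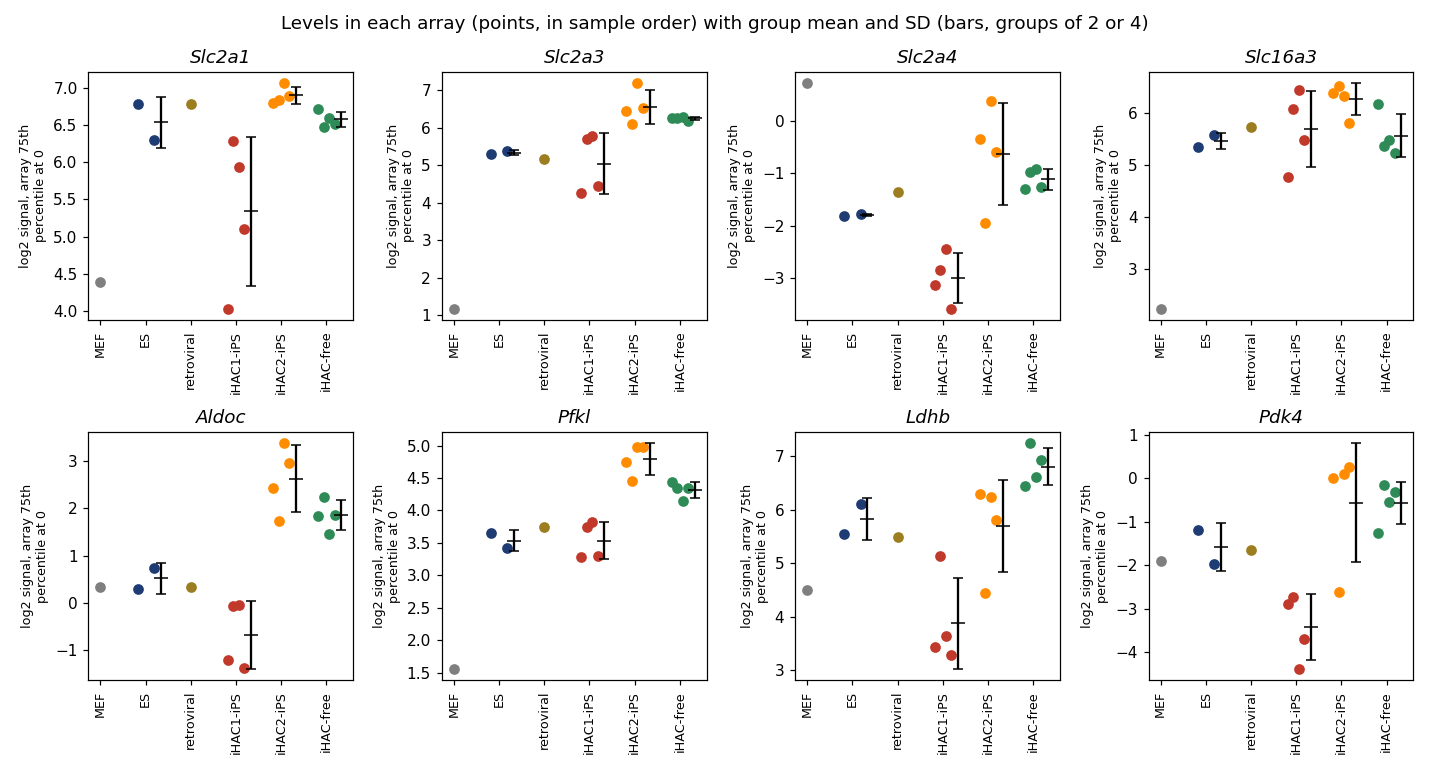
Log2 signal of 8 genes in every array, by group, with the 75th percentile of the array at 0. Points are samples in the order given in the text, and bars show group mean and SD for groups of 2 or 4. The iHAC1-iPS clones lie below all iHAC2-iPS clones and iHAC-free lines for Slc2a1, Slc2a3, Slc2a4, Aldoc and Pfkl, while for Ldhb clone 1-B lies above 2-C6 and for Pdk4 clone 2-C6 lies just above the iHAC1-iPS clones.

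Upper glycolysis, from hexokinase to triose phosphate isomerase, held 4 of the 7 genes called higher in iHAC2-iPS cells than in ES lines. Of its 10 genes, those 4 were called higher (Aldoc, Pfkl, Pfkp and Tpi1) and none lower, where 3.45% of all probes were called higher and 3.27% lower. Of the 10 genes, 9 had a higher mean, with a median of 0.81. In iHAC-free cells 9 of 10 also had a higher mean than ES cells, with a median of 0.72, and none was called. In iHAC1-iPS cells the median was 0.04 and none was called.

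Aldoc (chr11:78139964-78140023), the brain-type aldolase C, differed most of all leading probes when iHAC1-iPS were set against iHAC2-iPS cells. Its level was 0.33 in MEFs, 0.29 in B6ES and 0.74 in TT2, and 0.34 in 20D17. The iHAC1-iPS clones had -1.22 in 1-A3, -0.07 in 1-B, -0.03 in 1-C3 and -1.38 in 1-D6, and the iHAC2-iPS clones 2.44 in 2-B1, 1.73 in 2-C6, 3.37 in 2-E and 2.95 in 2-N. The iHAC-free lines had 1.84 in F-B1, 2.23 in F-C5, 1.46 in F-E4 and 1.85 in F-N7. Every iHAC2-iPS clone and iHAC-free line lay above both ES lines, and every iHAC1-iPS clone lay below both. iHAC2-iPS cells exceeded ES cells by 2.11 (SE 0.48, adjusted p = 0.0212), or 4.30-fold, and iHAC1-iPS cells lay 9.82-fold below iHAC2-iPS cells, at -3.30 (SE 0.39, adjusted p = 1.62e-04), and 5.74-fold below iHAC-free cells, at -2.52 (SE 0.39, adjusted p = 5.12e-04). The rise over ES cells was not called without B6ES, at 1.88 (adjusted p = 0.144), or without TT2, at 2.33 (adjusted p = 0.0864). The other Aldoc probe (A_51_P425284) gave 1.27 (SE 0.35, adjusted p = 0.0380) for that rise, which was lost without B6ES at 1.14, TT2 at 1.41, 2-B1 at 1.30 or 2-E at 0.94, and under normexp at 0.62. On the leading probe both differences involving iHAC1-iPS cells were called in all 16 alternatives.

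The other aldolase, Aldoa, the major form of growing cells and muscle, ranged over 8.59 to 8.63 in ES cells, 8.18 to 8.51 in iHAC1-iPS, 8.81 to 9.50 in iHAC2-iPS and 9.05 to 9.25 in iHAC-free cells. It differed by -0.92 (SE 0.16, adjusted p = 0.00113) between iHAC1-iPS and iHAC2-iPS cells, under 2-fold. 

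Phosphofructokinase, which commits glucose to glycolysis, has liver (Pfkl), muscle (Pfkm) and platelet (Pfkp) subunits. Pfkl (chr10:77450926-77450985) was at 3.65 in B6ES and 3.42 in TT2, 1.56 in MEFs and 3.74 in 20D17. The iHAC1-iPS clones stood at 3.29 in 1-A3, 3.74 in 1-B, 3.83 in 1-C3 and 3.29 in 1-D6, around the ES lines. iHAC2-iPS clones reached 4.75 in 2-B1, 4.45 in 2-C6, 4.97 in 2-E and 4.97 in 2-N and iHAC-free lines 4.44 in F-B1, 4.35 in F-C5, 4.15 in F-E4 and 4.34 in F-N7. All 8 arrays of the last 2 groups lay above all ES and iHAC1-iPS arrays. Pfkl was higher in iHAC2-iPS than in ES lines by 1.25 (SE 0.21, adjusted p = 0.00712) and lower in iHAC1-iPS than in iHAC2-iPS cells, with -1.25 (SE 0.17, adjusted p = 3.39e-04), and the first lost its call without TT2, at 1.14 (adjusted p = 0.0686). Against iHAC-free cells iHAC1-iPS cells differed by -0.78 (SE 0.17, adjusted p = 0.00376), under 2-fold.

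Pfkp was measured by 3 probes that disagreed. The leading one (A_51_P378856, spanning chr13:6581718-6583872, more than its own length and so across an intron) read -0.15 in MEFs, 0.76 in B6ES and 0.62 in TT2, and 1.57 in 20D17. It read 2.03 in 1-A3, 0.88 in 1-B, 0.97 in 1-C3 and 0.91 in 1-D6, and 1.91 in 2-B1, 1.66 in 2-C6, 2.18 in 2-E and 3.63 in 2-N. The iHAC-free lines had 2.50 in F-B1, 2.44 in F-C5, 1.82 in F-E4 and 2.19 in F-N7. Clones 1-A3 and 2-N were the highest of their groups, and 1-A3 alone overlapped the iHAC2-iPS range. iHAC2-iPS cells exceeded ES cells by 1.66 (SE 0.48, adjusted p = 0.0461), and iHAC1-iPS cells differed from iHAC2-iPS cells by -1.15 (SE 0.39, adjusted p = 0.0378), which without 2-N was -0.72 (adjusted p = 0.0732) and not called. The first lost its call without B6ES, at 1.73 (adjusted p = 0.180), TT2, at 1.59 (adjusted p = 0.197), 2-B1, at 1.80 (adjusted p = 0.0551), or 2-E, at 1.71 (adjusted p = 0.0731). The second was also lost without 1-B, 1-C3, 1-D6 or 2-E, at -1.04, -1.07, -1.05 and -1.20. Probe A_52_P223083 (chr13:6588296-6588355) moved the same way, by 1.75 and -2.21, and was called in both, the first not without B6ES (1.98) or TT2 (1.52). Probe A_52_P572045 (chr13:6579124-6579183) moved by only 0.01 and by 0.45, in the opposite direction in the latter.

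Pfkm had means of 2.77 ± 0.35 in ES (SD, n = 2), 2.84 ± 0.52 in iHAC1-iPS, 3.56 ± 0.44 in iHAC2-iPS and 3.50 ± 0.30 in iHAC-free cells (SD, n = 4 each) and was not called in any comparison. The leading probe of Tpi1 (chr6:124760947-124761006), triose phosphate isomerase, was 4.73 in MEFs, 5.67 in B6ES and 5.87 in TT2, 5.91 in 20D17 and 6.39 in 1-A3, 6.33 in 1-B, 6.35 in 1-C3 and 6.22 in 1-D6. It was 6.83 in 2-B1, 6.69 in 2-C6, 6.95 in 2-E and 6.78 in 2-N and, in iHAC-free lines, 6.48 in F-B1, 6.34 in F-C5, 6.19 in F-E4 and 6.39 in F-N7. Every HAC-derived array lay above both ES lines, and the iHAC2-iPS clones lay above all others. The rise in iHAC2-iPS cells was 1.04 (SE 0.14, adjusted p = 0.00307), just over 2-fold, and was under 2-fold without B6ES, at 0.94 (adjusted p = 0.0379), and barely so without 2-E, at 1.00 (adjusted p = 0.00920). In iHAC1-iPS cells it was 0.55 (SE 0.14, adjusted p = 0.0160), under 2-fold.

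Hexokinases trap glucose in the cell as glucose 6-phosphate. Hk3 (chr13:55107900-55107959), a form typical of blood cells, was the one leading probe called higher in iHAC1-iPS than in iHAC2-iPS cells. It was highest in MEFs, at -0.85, with -2.60 in B6ES and -3.19 in TT2 and -2.41 in 20D17. iHAC1-iPS clones had -2.44 in 1-A3, -2.66 in 1-B, -3.41 in 1-C3 and -1.85 in 1-D6, iHAC2-iPS clones -3.33 in 2-B1, -4.22 in 2-C6, -5.13 in 2-E and -4.29 in 2-N, with 3 of the 4 well above background. The iHAC-free lines had -3.89 in F-B1, -3.54 in F-C5, -3.15 in F-E4 and -3.42 in F-N7. The groups overlapped at 1-C3 and 2-B1, and iHAC1-iPS exceeded iHAC2-iPS cells by 1.65 (SE 0.38, adjusted p = 0.00609). Under normexp background correction that difference was 0.70 (adjusted p = 0.0228) and was not called. Hk1 and Hk2, the hexokinases of most proliferating cells, were not called in any comparison, with group means from 3.21 ± 0.08 (ES, SD, n = 2) to 4.09 ± 0.32 (iHAC-free, SD, n = 4) for Hk1 and from 4.65 ± 0.24 (iHAC1-iPS, SD, n = 4) to 5.20 ± 0.16 (iHAC-free, SD, n = 4) for Hk2. Gpi1, glucose phosphate isomerase, was higher in iHAC2-iPS than ES cells by 0.83 (SE 0.19, adjusted p = 0.0226) and lower in iHAC1-iPS than iHAC2-iPS cells, with -0.88 (SE 0.16, adjusted p = 0.00146), both under 2-fold.

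**Figure D4:**
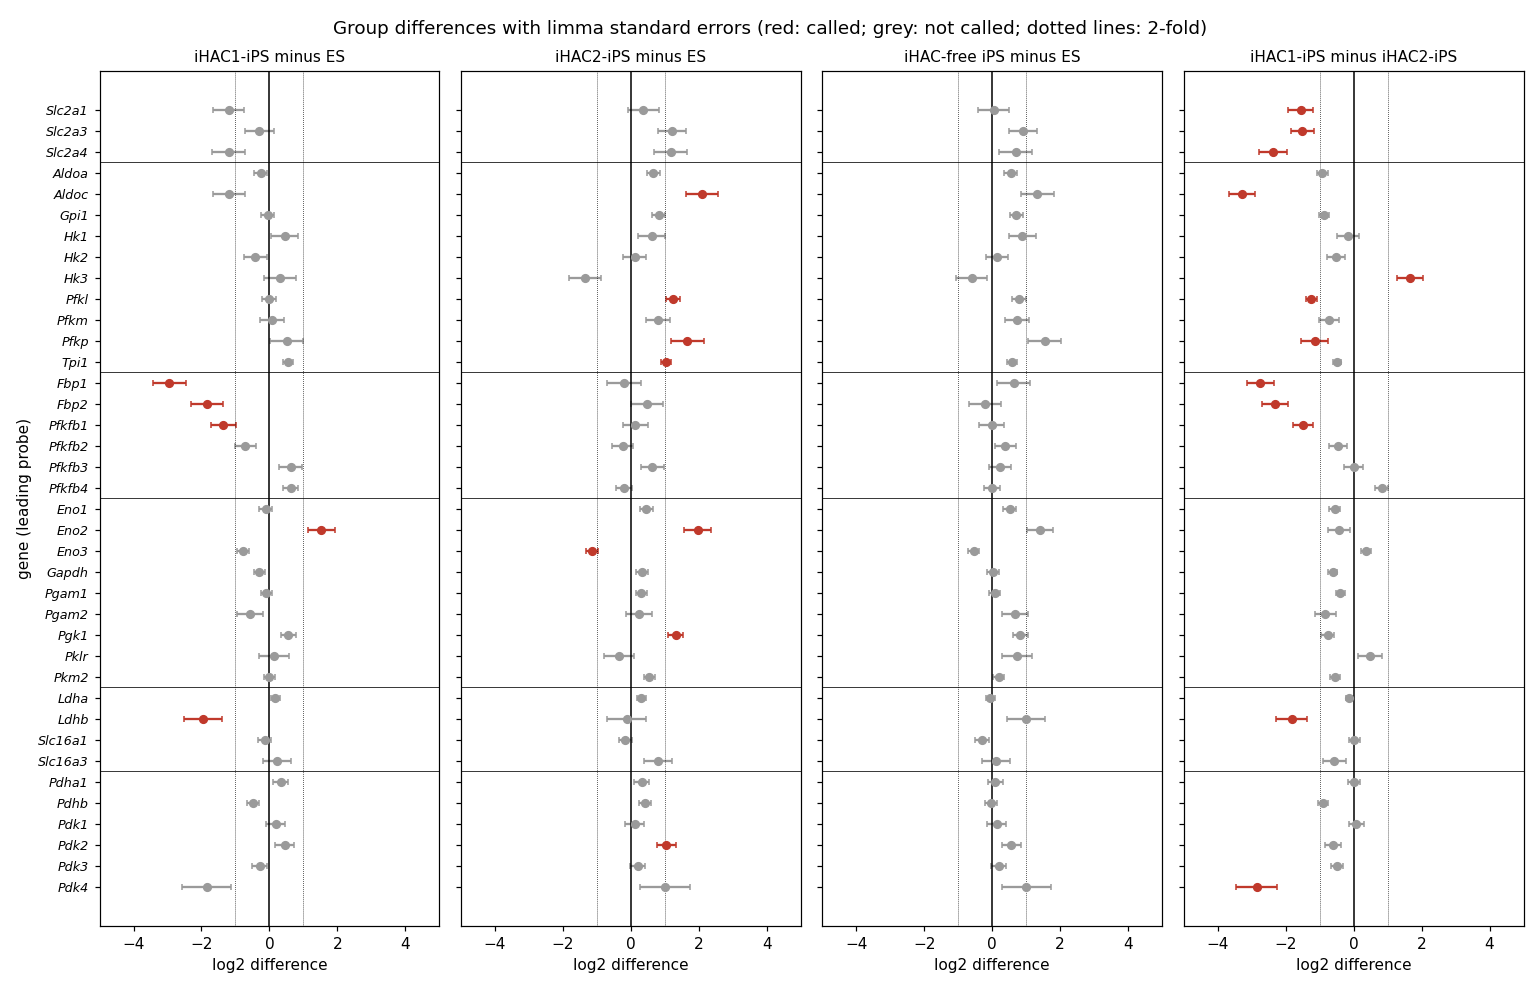
Log2 difference of each leading probe in 4 comparisons, with the limma standard error as bars, genes in blocks by role from glucose entry (top) to pyruvate dehydrogenase (bottom). Red points were called, grey points were not, and dotted lines mark 2-fold. Points of upper glycolysis lie mostly to the right for iHAC2-iPS and iHAC-free cells against ES cells and mostly to the left for iHAC1-iPS against iHAC2-iPS cells, where Aldoc reached -3.30.

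Among the 6 regulators of the phosphofructokinase step, 3 leading probes were called lower when iHAC1-iPS were set against ES cells, where 7.39% of all probes were. Of these Fbp2 was above background on none of the iHAC1-iPS arrays and Fbp1 on 1, neither was called under normexp, and Pfkfb1 alone was above background throughout both groups. Fbp1 and Fbp2 encode the liver and muscle fructose bisphosphatases, which run the step in reverse, and the Pfkfb enzymes make or break fructose 2,6-bisphosphate, its activator. Fbp1 (chr13:62966175-62966234) read -3.93 in MEFs, -2.42 in B6ES and -3.33 in TT2, and -1.21 in 20D17. In iHAC1-iPS clones it read -6.32 in 1-A3, -5.58 in 1-B, -5.78 in 1-C3 and -5.62 in 1-D6, where only 1 of the 4 arrays was well above background. The iHAC2-iPS clones had -3.37 in 2-B1, -3.84 in 2-C6, -2.15 in 2-E and -2.94 in 2-N and the iHAC-free lines -3.17 in F-B1, -1.77 in F-C5, -2.33 in F-E4 and -1.69 in F-N7. All 4 iHAC1-iPS clones lay below every other array, MEFs included. The differences were -2.95 (SE 0.49, adjusted p = 0.00186) from ES, -2.75 (SE 0.40, adjusted p = 4.96e-04) from iHAC2-iPS and -3.58 (SE 0.40, adjusted p = 8.28e-05) from iHAC-free cells. With normexp they were -0.92, -0.89 and -1.30, of which only the last was called.

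Fbp2 (chr13:62950852-62955367) was well above background on only 2 arrays, 1 of ES cells and that of 20D17, so no fold is given. Its levels were -8.19 in MEFs, -4.81 in B6ES and -6.93 in TT2, -3.68 in 20D17, -7.97 to -7.50 in iHAC1-iPS, -6.09 to -4.82 in iHAC2-iPS and -6.33 to -5.71 in iHAC-free cells. The limma fit called it lower in iHAC1-iPS cells against ES, iHAC2-iPS and iHAC-free cells alike, and the last of these reversed under normexp. With normexp the other calls were lost too, and without B6ES the one against ES cells was lost (adjusted p = 0.289).

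Pfkfb1 (chrX:147078271-147078330), whose liver form both makes and breaks the activator, was at -0.55 in MEFs, 1.24 in B6ES and 1.17 in TT2 and 0.76 in 20D17. In iHAC1-iPS clones it was -0.87 in 1-A3, 0.26 in 1-B, 0.52 in 1-C3 and -0.52 in 1-D6. The iHAC2-iPS clones gave 1.55 in 2-B1, 0.67 in 2-C6, 1.67 in 2-E and 1.44 in 2-N and the iHAC-free lines 1.11 in F-B1, 1.25 in F-C5, 1.06 in F-E4 and 1.31 in F-N7. No iHAC1-iPS clone reached any ES, 20D17, iHAC2-iPS or iHAC-free array, and 1-A3 and 1-D6 were again the lowest. The differences were -1.36 (SE 0.36, adjusted p = 0.0203) from ES, -1.49 (SE 0.30, adjusted p = 0.00280) from iHAC2-iPS and -1.34 (SE 0.30, adjusted p = 0.00428) from iHAC-free cells. The call against ES cells was lost without either ES line, at -1.33 (adjusted p = 0.134) without B6ES and -1.39 (adjusted p = 0.0875) without TT2.

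Pfkfb2 (chr1:132586122-132586181), the heart isozyme, was read by 4 probes, of which 2 were called lower in iHAC1-iPS than in iHAC-free cells. The other 2 had the opposite sign and were not called, at 0.58 for A_51_P335251 and 0.37 for A_52_P31125. The latter was well above background on none of the arrays of these groups. The leading probe gave -1.33 in MEFs, -1.96 in B6ES and -1.91 in TT2, -2.22 in 20D17 and -2.31 in 1-A3, -3.00 in 1-B, -2.73 in 1-C3 and -2.53 in 1-D6. It gave -1.81 in 2-B1, -3.02 in 2-C6, -1.81 in 2-E and -2.07 in 2-N and, in iHAC-free lines, -1.82 in F-B1, -1.49 in F-C5, -1.46 in F-E4 and -1.42 in F-N7. iHAC1-iPS clones and iHAC-free lines did not overlap, with a difference of -1.09 (SE 0.25, adjusted p = 0.00552), which was -0.97 (adjusted p = 0.0166) without 1-B and so under 2-fold. Under normexp it was -0.63 and the second called probe (A_52_P142912) fell from -1.55 to -0.34, and neither was called. Quantile normalization also left the leading probe under 2-fold, at -0.97. Probe A_51_P335251 (chr1:132595301-132595804) stood at -0.74 in 2-E against -4.51 to -4.29 in the other iHAC2-iPS clones and -4.23 in F-E4, the line made from 2-E. Pfkfb3, the inducible isozyme with strong kinase activity, was not called between groups with replicates and spanned 0.75 to 1.20 in ES, 1.22 to 1.81 in iHAC1-iPS, 0.98 to 2.28 in iHAC2-iPS and 0.98 to 1.75 in iHAC-free cells. Pfkfb4 had a higher mean in iHAC1-iPS cells, by 0.82 (SE 0.19, adjusted p = 0.00594) against iHAC2-iPS and 0.63 (SE 0.19, adjusted p = 0.0209) against iHAC-free cells, both under 2-fold.

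Lower glycolysis, from Gapdh to pyruvate kinase, had 2 of 9 genes called higher (Pgk1 and Eno2) and 1 lower (Eno3) in iHAC2-iPS cells than in ES lines. Of all probes, 3.45% were called higher and 3.27% lower there. Pgk1 (chrX:103398767-103398826), phosphoglycerate kinase, the first ATP-yielding step, was spotted 10 times on each array. It read 5.52 in MEFs, 6.66 in B6ES and 6.56 in TT2, 6.83 in 20D17 and 6.91 in 1-A3, 7.26 in 1-B, 7.64 in 1-C3 and 6.86 in 1-D6. The iHAC2-iPS clones had 8.00 in 2-B1, 7.67 in 2-C6, 8.22 in 2-E and 7.87 in 2-N and the iHAC-free lines 7.42 in F-B1, 7.57 in F-C5, 7.29 in F-E4 and 7.49 in F-N7. All HAC-derived arrays lay above both ES lines, and the iHAC2-iPS clones lay above all others. The rise in iHAC2-iPS cells was 1.32 (SE 0.22, adjusted p = 0.00739), or 2.50-fold, and the other Pgk1 probe gave 1.39 (SE 0.23, adjusted p = 0.00699). Neither the leading probe nor the other was called without B6ES or TT2, the leading one standing at 1.38 (adjusted p = 0.0536) and 1.27 (adjusted p = 0.0654).

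The 3 enolases moved apart. Eno2 (chr6:124710545-124710604), the neuronal enolase, was -0.24 in MEFs, -3.07 in B6ES and -2.15 in TT2, and -1.19 in 20D17. It was -0.35 in 1-A3, -1.29 in 1-B, -1.15 in 1-C3 and -1.51 in 1-D6, and -0.43 in 2-B1, -0.85 in 2-C6, -0.03 in 2-E and -1.24 in 2-N. The iHAC-free lines had -1.66 in F-B1, -0.96 in F-C5, -1.04 in F-E4 and -1.14 in F-N7. Every array other than the ES lines lay above both of them, and so the ES lines were the low group. The differences from ES cells were 1.53 (SE 0.39, adjusted p = 0.0168) in iHAC1-iPS, 1.97 (SE 0.39, adjusted p = 0.0132) in iHAC2-iPS and 1.41 (SE 0.39, adjusted p = 0.0962) in iHAC-free cells, the last not called. B6ES was much lower than TT2, and without B6ES the first 2 lost their calls, at 1.08 (adjusted p = 0.214) and 1.51 (adjusted p = 0.128). Eno3 (chr11:70475929-70475988), the muscle enolase, went the other way, at 3.06 in MEFs, 2.74 in B6ES and 2.33 in TT2, 2.29 in 20D17 and 1.76 in 1-A3, 1.71 in 1-B, 1.59 in 1-C3 and 1.98 in 1-D6. It was 1.63 in 2-B1, 1.34 in 2-C6, 1.44 in 2-E and 1.17 in 2-N, and 1.98 in F-B1, 2.05 in F-C5, 1.89 in F-E4 and 2.02 in F-N7 in iHAC-free lines. No HAC-derived array reached an ES line. iHAC2-iPS cells differed by -1.14 (SE 0.17, adjusted p = 0.00503) from ES cells, which without B6ES was -0.94 (adjusted p = 0.0582) and under 2-fold, and iHAC1-iPS cells by -0.78 (SE 0.17, adjusted p = 0.00857), under 2-fold. Eno1, the ubiquitous enolase, had group means between 2.85 ± 0.15 (iHAC1-iPS, SD, n = 4) and 3.47 ± 0.06 (iHAC-free, SD, n = 4) and was not called.

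Pgam2 (chr11:5701822-5703040), the muscle phosphoglycerate mutase, stood at 0.13 in MEFs, -1.14 in B6ES and -1.74 in TT2, -0.97 in 20D17 and -2.17 in 1-A3, -1.99 in 1-B, -1.91 in 1-C3 and -2.01 in 1-D6. The iHAC2-iPS clones had -1.85 in 2-B1, -1.13 in 2-C6, -1.59 in 2-E and -0.19 in 2-N and the iHAC-free lines -0.78 in F-B1, -0.47 in F-C5, -1.26 in F-E4 and -0.62 in F-N7. The iHAC1-iPS clones lay below all other arrays, and they differed from iHAC-free cells by -1.24 (SE 0.31, adjusted p = 0.00855). Under normexp this was -0.95 (adjusted p = 0.00599) and under 2-fold. Gapdh, often used as a reference gene, had means of 7.36 ± 0.03 in ES (SD, n = 2), 7.06 ± 0.12 in iHAC1-iPS, 7.69 ± 0.26 in iHAC2-iPS and 7.39 ± 0.08 in iHAC-free cells (SD, n = 4 each), and 5.75 in MEFs. It was lower in iHAC1-iPS than in iHAC2-iPS cells, with -0.62 (SE 0.14, adjusted p = 0.00494) or 1.54-fold, and so was not level across these samples. Pkm2, the pyruvate kinase of growing cells, had means of 6.09 ± 0.15, 6.09 ± 0.12, 6.64 ± 0.21 and 6.28 ± 0.12 in the same order. Pgam1, the common mutase, spanned 6.99 to 7.14, 6.78 to 7.18, 7.06 to 7.51 and 7.09 to 7.18. None of these 3 passed 2-fold between groups with replicates. Pklr, the liver and red cell pyruvate kinase, was well above background on 3 of 16 arrays and was not called. Gapdh, Pgk1, Ldha, Tpi1 and Pkm2 have many processed pseudogenes in mammals, and whether their probes also read such copies was not tested.

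At the lactate step the isozymes separated. Ldhb (chr6:142438838-142438897), the heart form of lactate dehydrogenase, was at 4.49 in MEFs, 5.54 in B6ES and 6.10 in TT2, and 5.49 in 20D17. It was 3.43 in 1-A3, 5.13 in 1-B, 3.64 in 1-C3 and 3.28 in 1-D6, and 6.30 in 2-B1, 4.44 in 2-C6, 6.25 in 2-E and 5.81 in 2-N. The iHAC-free lines had 6.44 in F-B1, 7.24 in F-C5, 6.62 in F-E4 and 6.94 in F-N7, all above both ES lines. Clones 1-A3, 1-C3 and 1-D6 lay below every other array, MEFs included, and 1-B lay above 2-C6. The differences of iHAC1-iPS cells were -1.95 (SE 0.56, adjusted p = 0.0289) from ES, -1.83 (SE 0.46, adjusted p = 0.00945) from iHAC2-iPS and -2.94 (SE 0.46, adjusted p = 5.77e-04), or 7.67-fold, from iHAC-free cells. The last 2 were called in all 16 alternatives. The first lost its call without B6ES, at -2.23 (adjusted p = 0.103), TT2, at -1.67 (adjusted p = 0.172), 1-A3, at -1.80 (adjusted p = 0.0676), 1-C3, at -1.87 (adjusted p = 0.0524), or 1-D6, at -1.76 (adjusted p = 0.0670).

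Ldha, the muscle form that favours lactate production, was steadier on its leading probe, at 7.92 ± 0.11 in ES (SD, n = 2), 8.10 ± 0.07 in iHAC1-iPS, 8.23 ± 0.13 in iHAC2-iPS and 7.86 ± 0.06 in iHAC-free cells (SD, n = 4 each). The largest difference of that probe between these groups was 0.37 (SE 0.11, adjusted p = 0.123), iHAC2-iPS above iHAC-free cells. The other Ldha probe (A_51_P364146) was higher than in ES cells by 0.58 (SE 0.14, adjusted p = 0.0153) in iHAC1-iPS and 0.57 (SE 0.14, adjusted p = 0.0299) in iHAC2-iPS cells, and by 0.47 (SE 0.12, adjusted p = 0.00835) in iHAC1-iPS against iHAC-free cells, all under 2-fold. The Ldha window, printed above, holds the most motif matches of those shown. Slc16a1, the lactate transporter MCT1, was not called on its leading probe, which read 4.50 in B6ES and 4.50 in TT2 and 4.15 to 4.49 in iHAC2-iPS clones. Its probe A_52_P245119 (chr3:104457083-104457142) read -0.93 in B6ES and -0.96 in TT2, -2.09 to -1.41 in iHAC1-iPS, -3.59 to -2.39 in iHAC2-iPS and -2.69 to -2.14 in iHAC-free cells. On that probe iHAC2-iPS cells were called lower than ES cells, with -1.97 (SE 0.30, adjusted p = 0.00508), and iHAC1-iPS cells higher than iHAC2-iPS cells, with 1.14 (SE 0.24, adjusted p = 0.00412), the latter falling under 2-fold without 2-B1, at 0.91 (adjusted p = 0.00744), and under normexp, at 0.66 (adjusted p = 8.24e-04). Slc16a3, the lactate exporter MCT4, was at 2.23 in MEFs, 5.35 to 5.57 in ES cells, 4.76 to 6.45 in iHAC1-iPS, 5.82 to 6.52 in iHAC2-iPS and 5.23 to 6.18 in iHAC-free cells and was not called.

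Pyruvate dehydrogenase admits pyruvate to mitochondria and the Pdk kinases shut it. The subunits Pdha1 and Pdhb stayed within 2-fold between the groups with replicates, with -0.90 (SE 0.15, adjusted p = 9.69e-04) for Pdhb in iHAC1-iPS against iHAC2-iPS cells. Pdk4 (chr6:5433441-5433500), the kinase induced by fasting and fatty acids, read -1.91 in MEFs, -1.19 in B6ES and -1.97 in TT2, -1.65 in 20D17 and -2.89 in 1-A3, -2.73 in 1-B, -4.39 in 1-C3 and -3.69 in 1-D6. The iHAC2-iPS clones had -0.01 in 2-B1, -2.61 in 2-C6, 0.09 in 2-E and 0.26 in 2-N, and the iHAC-free lines -1.26 in F-B1, -0.17 in F-C5, -0.56 in F-E4 and -0.32 in F-N7. Clone 2-C6 stood apart from the other 3 iHAC2-iPS clones but was still just above all iHAC1-iPS clones. iHAC1-iPS cells were lower than iHAC2-iPS cells, with -2.86 (SE 0.59, adjusted p = 0.00353), and than iHAC-free cells, with -2.85 (SE 0.59, adjusted p = 0.00306), both called in all 16 alternatives. Pdk2 (chr11:94887980-94888039) was at -3.83 in MEFs, -4.09 in B6ES and -4.29 in TT2, -3.53 in 20D17 and -3.51 in 1-A3, -3.43 in 1-B, -3.82 in 1-C3 and -4.19 in 1-D6. It was -2.81 in 2-B1, -3.80 in 2-C6, -2.86 in 2-E and -3.09 in 2-N, and -3.70 in F-B1, -3.49 in F-C5, -3.90 in F-E4 and -3.42 in F-N7 in iHAC-free lines. All iHAC2-iPS clones lay above the ES lines, by 1.05 (SE 0.29, adjusted p = 0.0385), and this was called in 6 of 14 alternatives. It was lost without B6ES (1.15), TT2 (0.95), 2-B1 (0.94), 2-E (0.95) or 2-N (1.03). Pdk1, a kinase known to be induced by hypoxia, spanned 1.94 to 2.14 in ES, 1.91 to 2.68 in iHAC1-iPS, 1.69 to 2.75 in iHAC2-iPS and 2.04 to 2.24 in iHAC-free cells, and neither it nor Pdk3 was called between them. The other Pdk1 probe (A_51_P406429) disagreed and was lower in iHAC1-iPS cells, under 2-fold. Its differences were -0.74 (SE 0.18, adjusted p = 0.0144) from ES, -0.86 (SE 0.15, adjusted p = 0.00128) from iHAC2-iPS and -0.85 (SE 0.15, adjusted p = 0.00111) from iHAC-free cells.

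The calls against ES cells rest on 2 lines. Without B6ES, 2 of the 13 member probes were called in iHAC2-iPS cells and 1 of the 6 in iHAC1-iPS cells, and without TT2 5 and 4. When other groups were left out of the fit no member probe was called in iHAC2-iPS cells, where 20 of all probes were. The direction of every called difference against ES cells was kept in each of these alternatives. In contrast, 15 of the 16 calls against iHAC2-iPS cells and 14 of the 15 against iHAC-free cells were made for iHAC1-iPS cells when other groups were left out.

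Within slide 2, which held both ES lines and 1-D6, the log2 difference of 1-D6 from the ES mean was -1.44 for Slc2a1, -1.89 for Aldoc, -2.75 for Fbp1 and -2.54 for Ldhb, and 1.10 for Eno2. With slide as a block, 1 of the 6 calls of iHAC1-iPS against ES cells was kept, that of Fbp1. iHAC2-iPS and iHAC-free cells shared both of their slides, and the differences between them on slides 3 and 4 were 0.52 and 0.48 for Pgk1, 0.46 and 0.47 for Pfkl, and 0.70 and 0.85 for Aldoc.

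Loss of the vector was followed line by line. The leading probes of 10 of 38 genes, among them Pgk1, Pfkl, Ldha and Slc2a1, were higher in each of the 4 iHAC2-iPS clones than in the line derived from it, and those of 3 (Eno3, Ldhb and Pklr) were lower in each. That was 26.3% and 7.89% of the genes, where 17.1% of all probes were higher and 9.11% lower in each line. For Pgk1 the clone exceeded its derived line by 0.58 in line B, 0.10 in line C, 0.93 in line E and 0.37 in line N. Ldhb was lower in each, with log2 differences of -0.14, -2.80, -0.38 and -1.13. Group differences were 0.50 (SE 0.18, adjusted p = 0.185) for Pgk1, 0.47 (SE 0.17, adjusted p = 0.180) for Pfkl, 0.37 (SE 0.11, adjusted p = 0.123) for Ldha and -1.11 (SE 0.46, adjusted p = 0.228) for Ldhb, none of them called. With line of origin as a block, 0 of the 65 member probes and 136 of all 31415 were called. Line C stood out for Pdk4, where 2-C6 minus F-C5 was -2.44 while the other 3 clones were above their derived lines.

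The spread among clones also differed between the groups. The median over the 38 genes of the range within a group was 0.69 in iHAC1-iPS and 0.95 in iHAC2-iPS clones, and 0.39 in iHAC-free lines, for 4 arrays each. The range reached 2-fold for 13 genes in iHAC1-iPS, 17 in iHAC2-iPS and 2 in iHAC-free cells. In iHAC2-iPS clones these genes include Pklr and Fbp2, which were well above background on none of the arrays of that group. No range over all probes is given beside these counts. They are descriptions, and whether the spread is particular to these genes was not tested.

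MEFs, the cells of origin, had 1 array, so differences from ES cells are judged by size alone. Of the 65 probes 39 (60.0%) were at least 2-fold apart, 5 higher and 34 lower in MEFs, where 40.7% of all probes were, 19.9% higher and 20.8% lower. By leading probe, 4 genes were higher and 21 lower. The log2 differences were -4.16 for Slc2a3, -3.23 for Slc16a3, -2.83 for Pdk1 and -2.16 for Slc2a1, and 2.53 for Slc2a4, 2.37 for Eno2, 2.05 for Hk3 and 1.58 for Pgam2. All 4 lactate genes were lower. The median of all probes was itself -0.20, and under quantile normalization, where it was -0.07, 25 member probes passed 2-fold, 5 higher and 20 lower. Every HAC-derived array lay above the MEF array for Slc2a3, Slc16a3, Pdk1, Pgk1 and Pfkl.

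The retroviral line 20D17, also 1 array, differed from the ES lines about as often in these probes as in all probes. At least 2-fold differences were seen for 5 of 65 probes (7.69%), all higher, against 8.75% of all probes (5.52% higher, 3.23% lower). These were both Eno2 probes, Fbp1, Fbp2 and a Pfkfb3 probe (A_52_P362917). By leading probe the largest were 2.19 for Fbp2, 1.66 for Fbp1 and 1.42 for Eno2.

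Neighbouring pathways were read from lists of genes outside the set. Of 16 genes known to be induced by hypoxia outside glycolysis, 7 were called higher in iHAC2-iPS than in ES lines and none lower, where 3.45% of all probes were called higher and 3.27% lower, with a median log2 difference of 1.20 where all probes had 0.05. They included Ndrg1, a stress-response gene (2.28, adjusted p = 0.00517), Bnip3, a mitophagy receptor (2.00, adjusted p = 0.00322), Adm, adrenomedullin (1.83, adjusted p = 0.0122), and Vegfa, an angiogenic factor (1.16, adjusted p = 0.0270). In iHAC1-iPS against ES cells 2 of the 16 were called higher, Mxi1 and P4ha1, and none lower. Of all probes, 6.88% were called higher and 7.39% lower there. In iHAC1-iPS against iHAC2-iPS cells 6 of the 16 were called lower and none higher, where 11.3% of all probes were called lower and 8.68% higher, with a median of -0.67 where all probes had -0.05. In iHAC-free against ES cells, where 0.366% of all probes were called, 1 was called, Bnip3 (1.66, adjusted p = 0.0335), with a median of 0.92. Of 10 oxygen-sensing genes, Egln3, a prolyl hydroxylase, was called higher in iHAC2-iPS than in ES lines (1.69), and Arnt2, a partner subunit of HIF-type factors, was called higher in iHAC1-iPS than in ES lines (2.21, adjusted p = 0.00667) and than in iHAC2-iPS cells (2.58, adjusted p = 5.43e-04). Egln3 was called lower in iHAC1-iPS than in iHAC2-iPS cells (-1.87). In iHAC2-iPS against ES cells 4 of the 10 genes had a higher mean and 6 a lower one, with a median of -0.27. Among the lower was Hif1a, which encodes HIF1 alpha, with -0.83 (adjusted p = 0.0144), under 2-fold and so not called. Epas1, which encodes HIF2 alpha, was called lower in iHAC1-iPS than in ES lines (-3.03) and than in iHAC2-iPS cells (-2.77).

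Of the motif matches, 2 of the 7 genes called higher in iHAC2-iPS than in ES lines (Pdk2 and Pgk1) and 2 of the 9 with a window among those called lower in iHAC1-iPS than in iHAC2-iPS cells (Fbp2 and Slc2a1) had ACGTG in a window. Over all 36 genes with a window this was 17.

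Among 14 other glycolytic isozymes and glucose transporters that could be tested, 1 was called higher and 2 lower in the iHAC1 clones than in ES lines, where 14.3% of all probes were called. The gene called higher was Slc2a6 (1.11, adjusted p = 0.0120). Ldhc, the germ-cell lactate dehydrogenase, was called lower (adjusted p = 3.59e-05) and was above background on none of the 4 iHAC1-iPS arrays, at -7.83 to -7.58, against -1.94 to -1.53 in ES and -1.80 to 0.89 in iHAC2-iPS cells. Slc2a5, the fructose transporter GLUT5, was above background on all of them and had a log2 difference of -3.09 (adjusted p = 3.43e-04), and of -3.24 against iHAC2-iPS cells, where 3 of the 14 were called higher and 4 lower and 20.0% of all probes were called. Those called higher against iHAC2-iPS cells were Slc2a6, Slc2a10 and Slc16a7. Of 12 gluconeogenesis and glycogen genes, 4 were called higher in iHAC2-iPS than in ES lines, namely Pygl, liver glycogen phosphorylase (2.07), Pck2, mitochondrial phosphoenolpyruvate carboxykinase (1.64), Gys1, muscle glycogen synthase (1.49), and Pgm2 (1.31). Of 8 pentose phosphate genes 1 was called in iHAC1-iPS against ES cells, Tigar, a fructose bisphosphatase known as a p53 target (-2.05). Of 7 genes of pyruvate entry into mitochondria, Mpc1, a subunit of the mitochondrial pyruvate carrier, was called higher in iHAC1-iPS than in ES lines (1.08), and all 7 had a higher mean there. The shares of all probes called in these comparisons with ES cells, 14.3% for iHAC1-iPS and 6.73% for iHAC2-iPS cells, stand beside the counts of these small lists. The lists were not refitted under the alternatives.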

How the data were processed

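RNA of 16 samples was hybridized to Agilent mouse arrays, 1 colour and 1 array per sample. The authors deposited the scanner output, whose processed signal is an intensity already background-subtracted by the scanner software, per the file headers. They also deposited a table of log2 values made with GeneSpring GX 11, scaled by array at the 75th percentile and centred per probe on the median over arrays. Its differences between arrays followed those of the scanner files with r of at least 0.9994, and it served as an alternative.

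Here the intensities were placed on the log2 scale, spots of a probe were averaged and the 75th percentile of each array was subtracted. Probes well above background on at least 1 array were tested with limma 3.58.1 in R 4.3.3 in 1 model of 6 groups without covariates, with Benjamini-Hochberg adjustment over all 31415 probes. A call needed an adjusted p under 0.05 and a 2-fold difference. MEFs and 20D17 have 1 array each and were compared with ES cells by size alone, without a test. The number of arrays, 2 or 4 per tested group, limits the precision. Each replicate is a clone or line of its own, so p-values measure the spread between these lines.

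Groups were taken from the sample titles, and slide and scan session from the headers. The member list, the other gene lists and the tests were chosen with earlier results of these data known. Genes were named by rule: each member whose leading probe was called in at least 1 comparison is given sample by sample, the others by ranges or means, and genes of the other lists as examples of those called. Hif1a, which was not called, is named outside this rule. Alternatives were normexp background correction, quantile normalization, the deposited table, a stricter filter on dim probes, no filter, 1 probe per gene, slide as a fixed or random block, only the compared groups, line of origin as a block, and leaving out each array in turn. Line of origin pairs iHAC2-iPS clones with the lines derived from them, and the correlation of their deviations from the group means was 0.22 in line N, -0.05 in E, -0.10 in B and -0.48 in C. On simulated data with 200 changed probes of 19937, the test recovered 91% in iHAC1-iPS against ES, 89% in iHAC2-iPS against ES and 95.5% in iHAC1-iPS against iHAC2-iPS cells. False calls were the most frequent in iHAC-free against ES cells, at 6.0% of calls. The planted differences were all well over 2-fold, with independent noise, on probes well above background on every array. These shares therefore do not hold for differences near 2-fold or for dim probes. Promoter windows are from RefSeq, GRCm38.p6, and probe positions are those of the array files, mm9, with no annotation of that build used. Exon and UTR positions of the probes and protein sequences are not analysed here. Python 3.11.15, numpy 2.4.6, pandas 2.3.3 and matplotlib 3.10.9 were used for the tables and plots.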

Additional observations from a re-analysis of the deposited data

Results flagged for a closer look

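In groups of 4 arrays, 7 of 114 leading-probe groups had 1 sample far from the other 3, where about 1 in 20, or 5.7, are marked by chance. Clone 2-C6 gave 3 of them, with a log2 level of 7.31 for Gapdh against 7.77 to 7.84 in the other iHAC2-iPS clones, 7.06 for Pgam1 against 7.44 to 7.51, and -2.61 for Pdk4 against -0.01 to 0.26. Among iHAC1-iPS clones, Pfkp was at 2.03 in 1-A3 against 0.88 to 0.97, and Eno1 at 3.08 in 1-C3 against 2.76 to 2.81. Among iHAC-free lines, Pfkfb2 was at -1.82 in F-B1 against -1.49 to -1.42, and Pfkfb3 at 1.75 in F-E4 against 0.98 to 1.09.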

How the results depend on the processing

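Of the 50 called member differences, 16 were called under every alternative run for them, and of their 738 refits 645 stayed called, 92 did not and 1 reversed. The reversal was Fbp2 in iHAC1-iPS against iHAC-free cells, at 0.077 with normexp (adjusted p = 0.669), where the probe was below background in both groups. Counts of member probes moved as follows. With normexp, 10 were called in iHAC1-iPS against iHAC2-iPS cells (0 higher, 10 lower), 1 in iHAC-free against ES cells and 2 in 20D17. With the stricter filter 2 were called in iHAC-free against ES cells and 2 in 20D17. With 1 probe per gene there were 8 in iHAC2-iPS against ES cells, 25 in MEFs and 3 in 20D17. Quantile normalization left 25 in MEFs. Slide as a fixed block left 2 in iHAC1-iPS against ES cells, and as a random block gave 5 in iHAC-free against ES cells (3 higher, 2 lower). Fitting only the compared groups left 2 in iHAC1-iPS and 0 in iHAC2-iPS against ES cells, where 20 of all probes were called. The replicate block by line of origin gave 0 in iHAC2-iPS against iHAC-free cells, as without it, and 136 against 242 of all probes. Leaving out 1 array at a time gave 1 to 7 in iHAC1-iPS and 2 to 17 in iHAC2-iPS against ES cells, 0 in iHAC-free against ES cells and in iHAC2-iPS against iHAC-free cells, 15 to 19 in iHAC1-iPS against iHAC2-iPS, 13 to 16 against iHAC-free cells, 35 to 38 in MEFs and 5 to 6 in 20D17. The lowest counts against ES cells, 1 and 2, came without B6ES. Under normexp the median of all probes was -0.16 in iHAC-free against ES cells, 0.19 in iHAC1-iPS and 0.16 in iHAC2-iPS against iHAC-free cells, against 0.02, 0.02 and 0.05, and calls in iHAC1-iPS against ES cells split 2 to 2. Why these counts moved was not tested. Probes near background, such as Fbp1, Fbp2, Hk3 and Pklr, limit what their differences can show.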
